A study of Mus musculus with 6 samples.

Results

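The mouse mitochondrial genome carries 37 genes, and their transcripts are described here in testis RNA. The members were taken as all entries on chromosome MT in the deposited table of 55711 entries. They comprised 13 protein genes, 2 ribosomal RNA genes and 22 transfer RNA genes, and all 37 were found. RNA was sequenced from 6 testis samples of C57BL6 mice, 3 heterozygous for Tmc7 and used as controls, and 3 labelled Tmc7 knockout. The labels give no age, no description of the Tmc7 allele and no further treatment, and do not say whether the samples of a group came from separate animals. P-values thus cover only the variation among these 6 samples, part of which may be technical. Values are FPKM, that is fragments counted per kilobase of a gene and adjusted for the size of each library. Levels of different genes are compared here as listed. Such comparison is limited for short transfer RNA genes, for genes whose sequence also lies in the nuclear genome, and by the use of an mRNA kit.

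The mitochondrial genome is a small circle that is read from both strands as long primary transcripts. These are cut largely at the transfer RNAs, which lie between the other genes, and most of the released messenger RNAs receive a short poly(A) tail. The encoded proteins are core subunits of respiratory complexes I, III, IV and V, and the ribosomal and transfer RNAs serve their translation inside the organelle. In testis, germ cells at different stages hold different numbers of mitochondria, and somatic cells add their own.

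Copies of mitochondrial sequence also lie in the nuclear genome, and 7 annotated pseudogenes on chromosome 1 match 7 of the 13 protein genes in whole or in part. In GRCm38 they lie on the minus strand between 24611535 and 24616197, and they copy mt-Nd4, mt-Nd4l, mt-Nd3, mt-Co3, mt-Atp6, mt-Co2 and mt-Co1 in order. By position they correspond to bases 6381 to 11042 of chromosome MT, a stretch of 4662 bases against 4663 on chromosome 1. Only the annotated copies were compared base by base; the sequence between them was not analysed here, so genes in the gaps are placed in the stretch by position alone. Of the 7 copies, 5 had no base that differed over their aligned length, Gm28438 had 1 difference from mt-Nd3 in 345 bases, and Gm29216 had 6 differences from mt-Co1 in 492 bases. The first 90 bases of mt-Co2 (MT from 7013 to 7102, plus strand) are shown beside Gm28661 (chr1:24615476-24615565, minus strand) and Gm13341 (chr2:22587873-22587962, minus strand), because Gm28661 had 0.912 to 1.10 times the FPKM of mt-Co2 across the libraries, and Gm13341 is a copy that differs. Bases that differ from mt-Co2 are in capitals. The chromosome 1 copy has none, and Gm13341 has C25T and G57A, counted from the first base of mt-Co2.
mt-Co2: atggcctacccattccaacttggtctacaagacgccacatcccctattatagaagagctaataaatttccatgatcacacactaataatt
Gm28661: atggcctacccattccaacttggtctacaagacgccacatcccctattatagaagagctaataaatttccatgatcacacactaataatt
Gm13341: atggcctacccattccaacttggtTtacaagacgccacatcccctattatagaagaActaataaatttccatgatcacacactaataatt

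Reads worked back from FPKM numbered 17059486 to 19343479 per library. Tmc7 itself was at 37.2 to 39.1 FPKM in controls, against 35.1 to 43.8 FPKM in the knockout-labelled libraries, so its transcript level does not check the labels. The testis label was met by the late spermatid marker Tnp2, at a mean of 3844 FPKM, while of 5 epididymal markers Lcn5 was listed at 0 in every library and Defb19 had a mean of 130 FPKM. Of those 5, only Defb19 reached a mean of 0.5 FPKM, so its level is not read here as a sign of epididymal tissue. Knockout-labelled libraries 2 and 3 stood apart from the other 4 in nuclear small RNA and ribosomal RNA gene models, which held 0.300% and 0.258% of their reads against 0.0683% to 0.0790% elsewhere.

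The mitochondrial genome gave 7 of the 57 genes of highest FPKM in these testes, and 6 further protein genes were far lower. mt-Co1 had the highest mean of the 37 genes at 2868 FPKM and ranked 4th in the table. The 7 high genes, mt-Co1, mt-Nd1, mt-Cytb, mt-Nd2, mt-Nd5, mt-Nd4 and mt-Nd6, lay between 359 and 3239 FPKM in any library. The 6 low genes, mt-Co2, mt-Atp6, mt-Co3, mt-Nd4l, mt-Nd3 and mt-Atp8, lay between 0 and 32.8 FPKM.

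**Figure D1:**
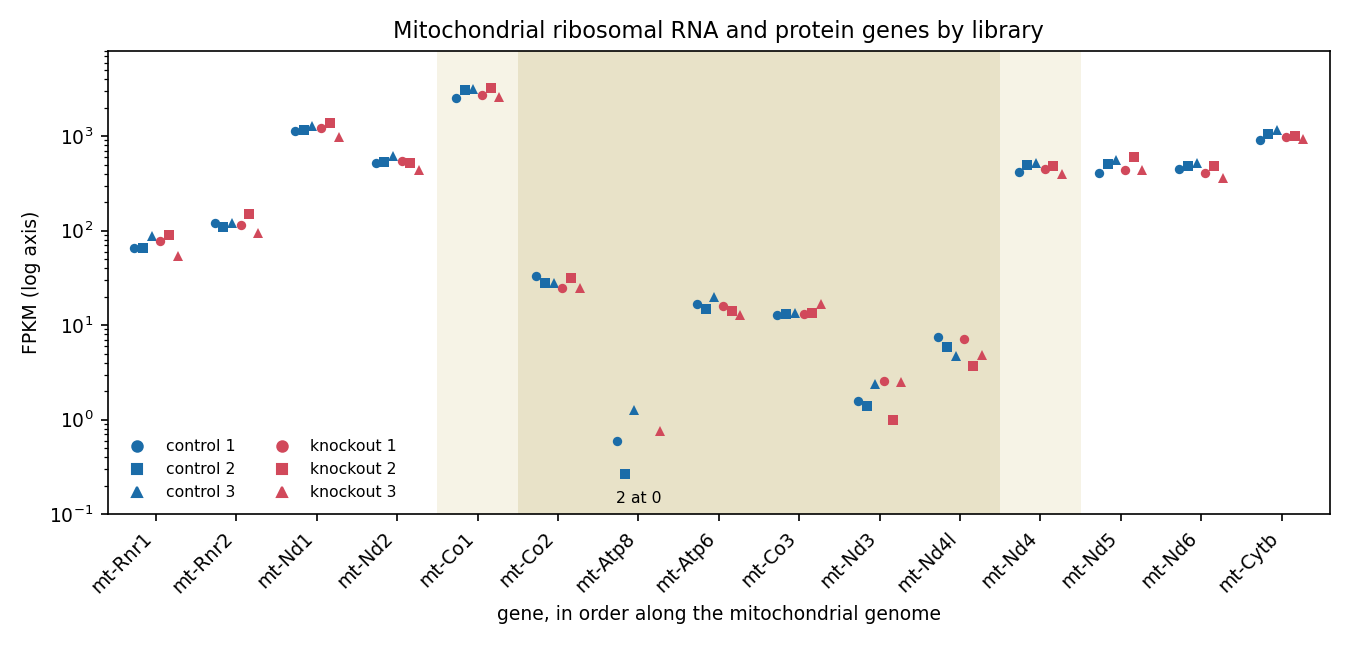
FPKM on a log axis of the 2 ribosomal RNA and 13 protein genes in each of the 6 libraries (blue controls, red labelled knockout, symbol by replicate number), in their order along the mitochondrial genome. Dark shading marks the 6 genes wholly inside the stretch copied on chromosome 1 and light shading mt-Co1 and mt-Nd4, which are partly inside; every value of the 6 genes is at or below 32.8 FPKM, and 2 values of mt-Atp8 are 0.

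Complex I passes electrons from NADH to ubiquinone, and its mitochondrial subunits had mean levels from 1.91 FPKM for mt-Nd3 to 1194 FPKM for mt-Nd1. mt-Nd1 (MT from 2751 to 3707), a membrane subunit next to the quinone site, read 1146, 1161 and 1292 FPKM in the 3 controls, against 1215, 1364 and 985 FPKM in knockout-labelled libraries. The groups overlapped, with the highest and the lowest of the 6 values both among the knockout-labelled libraries. mt-Nd2 (MT from 3914 to 4951), one of the antiporter-like membrane subunits, read 523, 529 and 616 FPKM in the 3 controls, against 544, 518 and 440 FPKM in knockout-labelled libraries. Here control library 3 was highest and knockout-labelled library 3 lowest.

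mt-Nd4 (MT from 10167 to 11544), another antiporter-like subunit, read 414, 498 and 516 FPKM in the 3 controls, against 450, 488 and 400 FPKM in knockout-labelled libraries. mt-Nd5 (MT from 11742 to 13565), the subunit at the far end of the membrane arm, read 408, 503 and 562 FPKM in the 3 controls, against 443, 604 and 442 FPKM in knockout-labelled libraries. Both genes overlapped between the groups, and their lowest values came from different groups, knockout-labelled library 3 for mt-Nd4 and control library 1 for mt-Nd5.

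mt-Nd6 (MT from 13552 to 14070) is the only protein gene on the minus strand. It read 446, 483 and 513 FPKM in the 3 controls, against 403, 481 and 359 FPKM in knockout-labelled libraries. Its last 14 bases overlap the end of mt-Nd5 on the other strand, and no source used here gives the strand of counting, so reads of a gene and of its opposite strand cannot be told apart. The FPKM of mt-Nd6 divided by that of mt-Nd5 was 1.09, 0.961 and 0.914 in controls and 0.911, 0.796 and 0.813 in the knockout-labelled libraries. By chance, 10% of comparisons of 3 against 3 do not overlap. The groups did not overlap in this ratio of mt-Nd6 to mt-Nd5, whose nearest values, 0.914 and 0.911, were close. It was 1 of 4 ratios between mitochondrial genes computed after the data were seen, none of them tested, and the groups overlapped in the other 3: mt-Rnr1 over mt-Rnr2 at 0.556 to 0.721 and 0.561 to 0.668, mt-Co1 over mt-Nd1 at 2.203 to 2.64 and 2.21 to 2.61, and mt-Cytb over mt-Nd1 at 0.803 to 0.907 and 0.731 to 0.944 (controls first).

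The 2 small complex I genes were low. mt-Nd3 (MT from 9459 to 9806), whose product has a loop near the quinone site, read 1.57, 1.40 and 2.39 FPKM in the 3 controls, against 2.58, 0.994 and 2.51 FPKM in knockout-labelled libraries. These values rest on 74 reads over the 6 libraries. mt-Nd4l (MT from 9877 to 10173), a small membrane subunit, read 7.57, 5.82 and 4.73 FPKM in the 3 controls, against 7.12, 3.69 and 4.84 FPKM in knockout-labelled libraries, from 183 reads. In both genes the groups overlapped, and knockout-labelled library 2 was the lowest of the 6.

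mt-Cytb (MT from 14145 to 15288) encodes cytochrome b, the only mitochondrially encoded subunit of complex III. It read 920, 1053 and 1159 FPKM in the 3 controls, against 987, 997 and 930 FPKM in knockout-labelled libraries. The range of the knockout-labelled libraries fell wholly within that of the controls, and mt-Cytb had the narrowest spread of the 7 high genes, with a highest value 1.26 times the lowest. The widest was that of mt-Nd5, at 1.48 times.

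The 3 catalytic-core genes of cytochrome c oxidase, complex IV, had mean levels of 2868, 28.2 and 13.8 FPKM. mt-Co1 (MT from 5328 to 6872), the subunit that holds the site of oxygen reduction, read 2523, 3067 and 3115 FPKM in the 3 controls, against 2690, 3239 and 2572 FPKM in knockout-labelled libraries. It held 47.7% to 49.9% of the reads of all 13 protein genes as listed. This share and the levels of the 3 genes are uncertain, because reads shared with nuclear copies could be assigned to either locus or left out. mt-Co2 (MT from 7013 to 7696), which accepts electrons from cytochrome c, read 32.8, 27.9 and 27.8 FPKM in the 3 controls, against 24.9, 31.2 and 24.7 FPKM in knockout-labelled libraries. mt-Co3 (MT from 8607 to 9390) read 12.9, 13.1 and 13.5 FPKM in the 3 controls, against 13.02, 13.5 and 16.6 FPKM in knockout-labelled libraries. The order mt-Co1, mt-Co2, mt-Co3 was the same in each of the 6 libraries, with no overlap of their values, and for each gene the groups overlapped.

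The ATP synthase genes, complex V, were low in every library. mt-Atp6 (MT from 7927 to 8607), the subunit that forms the proton path, read 16.6, 14.99 and 19.9 FPKM in the 3 controls, against 15.8, 14.1 and 12.9 FPKM in knockout-labelled libraries. mt-Atp8 (MT from 7766 to 7969) read 0.596, 0.265 and 1.28 FPKM in the 3 controls, against 0, 0 and 0.754 FPKM in knockout-labelled libraries, from 11 reads in all. For mt-Atp6 the groups overlapped, and for mt-Atp8 the reads are too few to order the libraries. mt-Atp8 was the only protein gene below the mean of 0.5 FPKM set for testing. The reading frames of both genes overlap by 43 bases (MT from 7927 to 7969), so a read there belongs to both; the shared stretch is shown with the start codon of mt-Atp6 in capitals.
mt-Atp8/mt-Atp6 overlap: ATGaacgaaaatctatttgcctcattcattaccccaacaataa

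The 6 low protein genes were those wholly inside the stretch copied on chromosome 1. Of the 11 genes wholly inside it, 6 are protein and 5 transfer RNA genes, and together they held 4744 reads, against 467220 reads for the 24 genes wholly outside. mt-Co1, with 492 of its 1545 bases inside, and mt-Nd4, with 876 of 1378, held 557104. Shared sequence was measured as the percent of a gene's distinct 31-base words that also occur in GENCODE M21 transcripts of other genes. It was 98.1% to 100% for mt-Co2, mt-Co3, mt-Atp6, mt-Nd3 and mt-Nd4l, 63.9% for mt-Co1, 62.8% for mt-Nd4 and 0% to 16.8% for mt-Nd1, mt-Nd2, mt-Nd5, mt-Nd6 and mt-Cytb. With 100-base words it was 97.6% to 99.9% for those 5 low genes. For mt-Atp8 it was 7.47% with 31-base words, and the rest of mt-Atp8 falls in a gap between annotated copies. Those 5 genes, and in part mt-Co1 and mt-Nd4, are uncertain in level, because their reads could be assigned to either locus or left out. No source used here says how such reads were treated, and its part in the low values was not tested.

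Of the 7 copies on chromosome 1, 4 were listed at FPKM near those of the genes they copy. Gm28661, the copy of mt-Co2, read 29.9, 25.9 and 25.9 FPKM in the 3 controls, against 27.3, 31.7 and 26.8 FPKM in knockout-labelled libraries. Its FPKM was 0.912 to 1.10 times that of mt-Co2 across the 6 libraries. Gm10925, the copy of mt-Atp6, read 17.7, 19.5 and 15.05 FPKM in the 3 controls, against 17.2, 13.8 and 14.8 FPKM in knockout-labelled libraries, 0.757 to 1.30 times mt-Atp6. For Gm28437 and mt-Co3 the ratio was 0.812 to 1.06, and for Gm10222 and mt-Nd4l it was 0.737 to 1.65. With the reads of gene and copy added, mt-Co2 was at 51.4 to 62.7 FPKM and mt-Atp6 at 27.6 to 34.8 FPKM. Any reads left out of both loci are missing from these sums, and the cause of the low values was not tested.

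Gm28438 departed from this pattern. It was 3.92 to 10.6 times as high as mt-Nd3, with 479 reads against 74. Despite its 1 differing base, it held 98.1% of the 31-base words of mt-Nd3 and 97.6% of the 100-base words. The cause of the difference in reads between Gm28438 and mt-Nd3 was not tested. Gm29216 and Gm28439, which copy only parts of mt-Co1 and mt-Nd4, were at 8.97 to 12.5 and at 3.74 to 5.24 FPKM, and each was at most 0.0117 times the mitochondrial gene. The copies on chromosome 2 were lower, with means of 1.08 FPKM for Gm13340, 0.618 FPKM for Gm13341 and 0.218 FPKM for Gm13339.

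**Figure D2:**
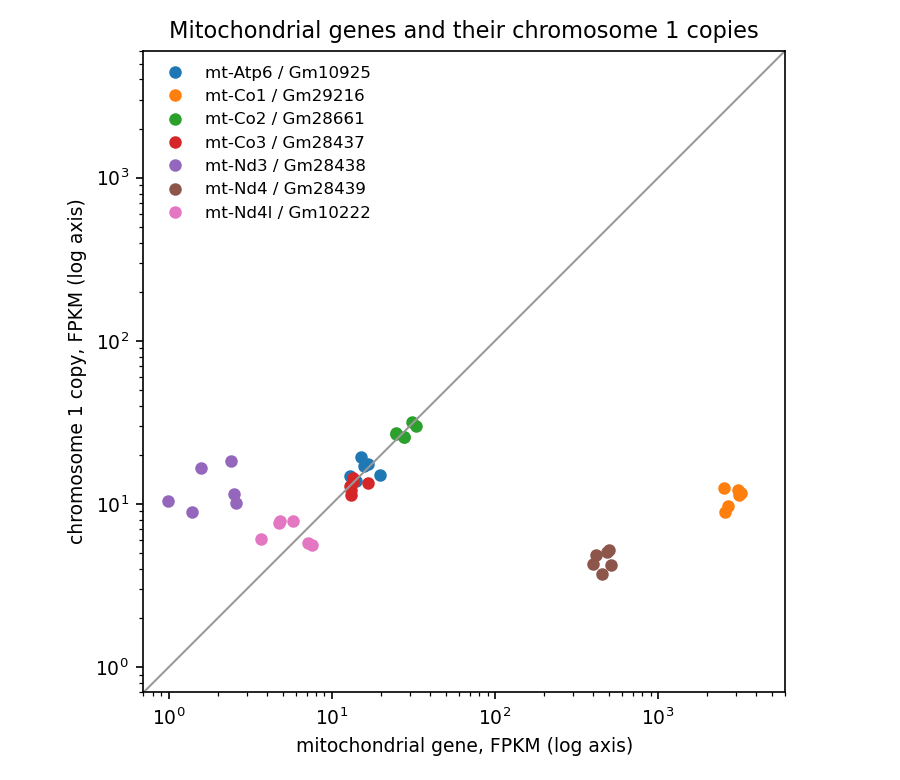
FPKM of 7 mitochondrial genes (x axis) and of their chromosome 1 copies (y axis), both on log axes, with 1 point per library and a grey line of equal values. mt-Co2, mt-Atp6, mt-Co3 and mt-Nd4l lie along the line, mt-Nd3 lies above it, and mt-Co1 and mt-Nd4 lie far below it.

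The ribosomal RNA genes had lower levels than the 7 high protein genes. mt-Rnr1 (MT from 70 to 1024), the RNA of the small mitochondrial ribosomal subunit, read 66.3, 65.9 and 87.4 FPKM in the 3 controls, against 77.2, 89.6 and 53.4 FPKM in knockout-labelled libraries. mt-Rnr2 (MT from 1094 to 2675), the RNA of the large subunit, read 119, 110 and 121 FPKM in the 3 controls, against 116, 151 and 95.2 FPKM in knockout-labelled libraries. For both genes knockout-labelled library 2 was the highest of the 6 and knockout-labelled library 3 the lowest. Knockout-labelled libraries 2 and 3 also held the most nuclear small and ribosomal RNA, and a relation to these values was not tested. Shared words were 0% in mt-Rnr1 and 2.71% in mt-Rnr2, all of the latter in Gm20594 on chromosome 6, which was listed at 0 in every library.

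Of the 22 transfer RNA genes, 10 were above 0 in each library, 6 were above 0 in some and 6 were listed at 0 in all. The 6 at 0 were mt-Tf, mt-Tv, mt-Ts1, mt-Td, mt-Tg and mt-Tt, and a count of 0 allows up to 3 reads in a library, counting error only. All 22 together held 1877 reads, and their sequences are 59 to 75 bases long, so 1 read moves FPKM by 0.684 or more. The 4 highest are shown with 2 of those at 0, each from the GENCODE M21 transcript of its gene. The capitals mark the anticodon, placed where its known triplet follows a T near the middle of the sequence.
mt-Tp: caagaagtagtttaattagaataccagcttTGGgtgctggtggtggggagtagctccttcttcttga
mt-Tc: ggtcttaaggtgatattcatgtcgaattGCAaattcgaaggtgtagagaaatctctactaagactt
mt-Tl1: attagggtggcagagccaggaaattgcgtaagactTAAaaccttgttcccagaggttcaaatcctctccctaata
mt-Te: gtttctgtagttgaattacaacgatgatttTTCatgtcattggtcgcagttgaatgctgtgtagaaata
mt-Tf: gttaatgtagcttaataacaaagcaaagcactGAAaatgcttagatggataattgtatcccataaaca
mt-Tt: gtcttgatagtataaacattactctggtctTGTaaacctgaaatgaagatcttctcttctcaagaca

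mt-Tp (MT from 15356 to 15422, minus strand), the transfer RNA for proline, read 48.1, 86.2 and 69.1 FPKM in the 3 controls, against 61.6, 92.95 and 61.2 FPKM in knockout-labelled libraries. mt-Tc (MT from 5192 to 5257, minus strand), for cysteine, was at 46.1, 44.998 and 60.7 FPKM and at 44.9, 51.5 and 32.6 FPKM. mt-Tl1 (MT from 2676 to 2750, plus strand), a leucine transfer RNA between mt-Rnr2 and mt-Nd1, was at 25.1, 38.2 and 47.2 FPKM and at 44.4, 36.1 and 28.04 FPKM. In these 3 genes the groups overlapped, with no library at the same end in all of them.

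mt-Te (MT from 14071 to 14139, minus strand), for glutamate, adjoins mt-Nd6 and read 41.4, 35.2 and 33.2 FPKM in the 3 controls, against 24.5, 35.1 and 29.7 FPKM in knockout-labelled libraries. The 8 transfer RNA genes on the minus strand held 1313 reads and the 14 on the plus strand 564, so the strand with fewer genes had the larger count. The median of the mean FPKM was 13.1 on the minus and 0.196 on the plus strand. Reads of the 2 strands cannot be told apart here.

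Between 0.5 and 15 FPKM stood 8 genes: mt-Ty, mt-Tl2, mt-Tn, mt-Ts2, mt-Tw, mt-Th, mt-Ta and mt-Tm. mt-Ty (MT from 5260 to 5326, minus strand), for tyrosine, read 13.6, 20.95 and 23.3 FPKM in the 3 controls, against 7.10, 12.05 and 8.42 FPKM in knockout-labelled libraries. It was the only one of the 37 genes whose groups did not overlap, a pattern that 4.41% of all genes tested showed in the same direction, and its counts were 15, 26 and 30 against 9, 14 and 11 reads. Of its 31-base words 10.8% also occur in the nuclear gene Cep295, which was at 6.20 ± 0.429 and 5.95 ± 0.939 FPKM (SD, n = 3 each).

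mt-Th, for histidine, ran from 0.907 to 6.21 FPKM in controls and from 1.58 to 13.8 FPKM in the knockout-labelled libraries. mt-Ts2, a serine transfer RNA next to it, ran from 3.66 to 16.5 and from 1.79 to 22.5 FPKM. mt-Tl2 ran from 7.71 to 23.5 and from 7.45 to 14.6 FPKM, mt-Tn from 6.84 to 18.3 and from 8.12 to 18.6 FPKM, and mt-Tw from 0.806 to 10.9 and from 4.303 to 10.3 FPKM. mt-Ta was at 0 in 3 of 6 libraries and at most at 2.51 FPKM. mt-Tm had 2 reads in each of control libraries 1 and 2 and none elsewhere. mt-Ti, mt-Tq, mt-Tk and mt-Tr had 1 or 2 reads, each in a single library.

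**Figure D3:**
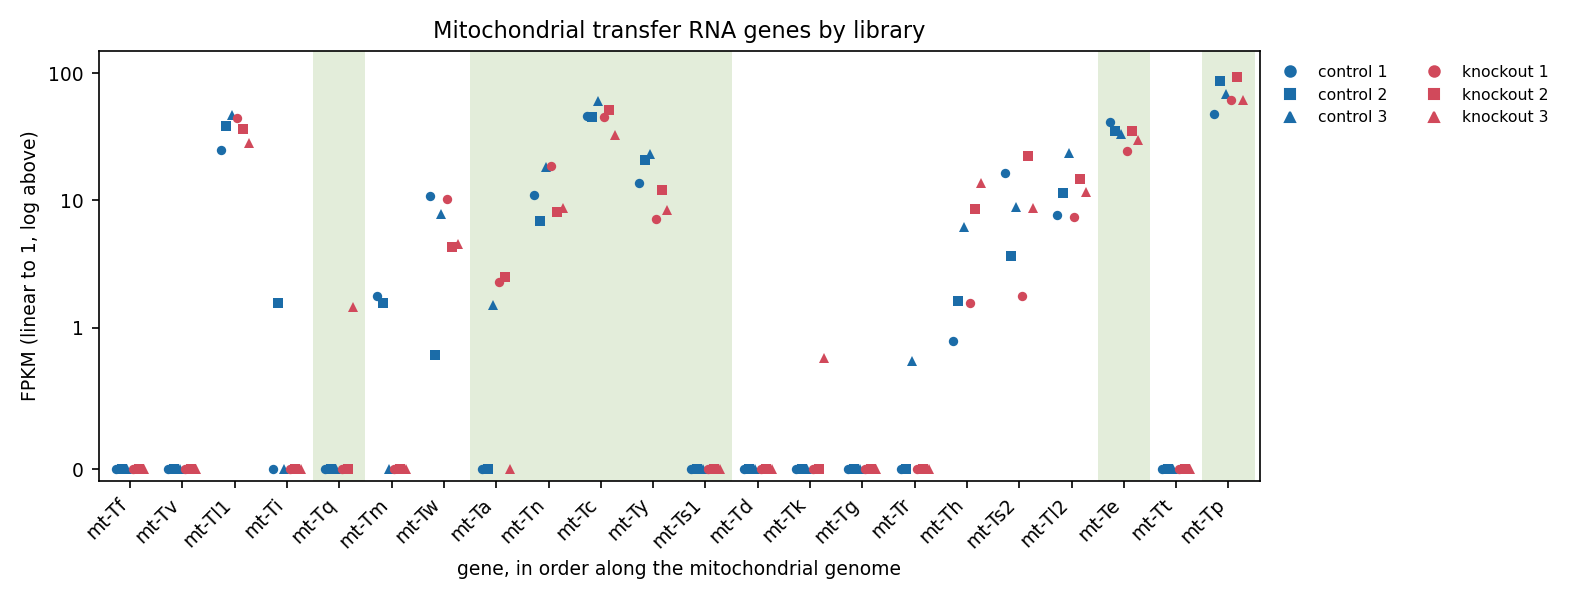
FPKM of the 22 transfer RNA genes in each library (blue controls, red labelled knockout), in genome order, on an axis that is linear to 1 and logarithmic above; green shading marks genes on the minus strand. mt-Tp, mt-Tc, mt-Tl1 and mt-Te are highest, 6 genes are at 0 throughout, and mt-Ty is the only gene whose control values all lie above those labelled knockout.

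The comparison asked whether mitochondrial transcripts differ between heterozygous and Tmc7 knockout testes. None of the 26 members with a mean of at least 0.5 FPKM passed at a Benjamini-Hochberg adjusted p under 0.05 in limma's trend test on log2(FPKM + 1). Over all 19168 genes tested 0% passed. The 26 were 12 protein, 2 ribosomal RNA and 12 transfer RNA genes, with adjusted p from 0.868 to 0.999. By limma-voom on the reads worked back from FPKM, 0 of 22 members and 0.00486% of all genes passed. At an unadjusted p under 0.05 stood mt-Ty, which was lower; of all genes tested 3.87% fell under that threshold in either direction and 2.38% were lower. mt-Tm also fell under it, but with 4 reads, all in controls, it entered the test only through the group where it is high, so it had to be lower and is not read against those shares. With a pseudocount of 0.1 or 0.01 only 1 member was under the threshold. Groups did not overlap in 1 of the 26 tested members, mt-Ty, which was lower, against 8.56% of all genes tested, 4.41% lower and 4.15% higher. In these bulk samples fewer cells of a type and less RNA per cell cannot be told apart.

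Protein genes had a median standard error of 0.15, against 0.38 for transfer RNA genes. Their log2 differences ran from -0.25 for mt-Atp6 to 0.11 for mt-Co3, with standard errors of 0.11 to 0.26, and each 95% interval held 0. No interval of a protein or ribosomal RNA gene reached 1 or -1 on the log2(FPKM + 1) scale, where a doubling or halving of a low gene is less than 1. Their outermost bounds were -0.74 and 0.69. For mt-Co1 the difference was -0.04 (95% interval -0.51 to 0.44, adjusted p = 0.977), and for mt-Nd1 it was -0.02 (-0.43 to 0.38, adjusted p = 0.982). mt-Nd6 had -0.22 (-0.56 to 0.12, adjusted p = 0.868), and mt-Cytb had -0.10 (-0.45 to 0.25, adjusted p = 0.896). mt-Rnr1 and mt-Rnr2 were at -0.01 and 0.02, with standard errors of 0.21 and 0.17.

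Over all 13 protein genes, mt-Atp8 included, 10 had a lower and 3 a higher mean in the knockout-labelled libraries, and the median log2 difference was -0.10. Over all genes tested the median was -0.01, and 51.4% had a lower mean. The median of the 13 genes was -0.03 without control library 3 and -0.05 with quantile normalization, under which 7 were lower and 6 higher. Centred on the 6 libraries, the median level of the 13 genes was -0.05, 0.01 and 0.20 in controls and -0.03, -0.01 and -0.15 in the knockout-labelled libraries. In this FPKM measure control library 3 was thus highest and knockout-labelled library 3 lowest, with the other 4 between -0.05 and 0.01. By share of all reads the lowest was control library 1, at 0.789% on protein genes against 0.862% in knockout-labelled library 3. Library sizes implied by FPKM differ from the summed reads. They were 16450310 against 17059486 in control library 1, and 19497384 against 18140921 in knockout-labelled library 3.

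The transfer RNA genes had wider intervals. mt-Ty had a log2 difference of -0.99, SE 0.24 (95% interval -1.55 to -0.43, limma adjusted p = 0.868), and mt-Th had 1.12 with an interval from -0.58 to 2.81. Of the 12 tested, 5 had an interval that reached -1, mt-Tm among them, and 4 an interval that reached 1. On this scale a halving or doubling of a low gene is less than 1, so more intervals may include it. Over all 22, 10 had a lower mean, 6 a higher mean and 6 were at 0 throughout.

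**Figure D4:**
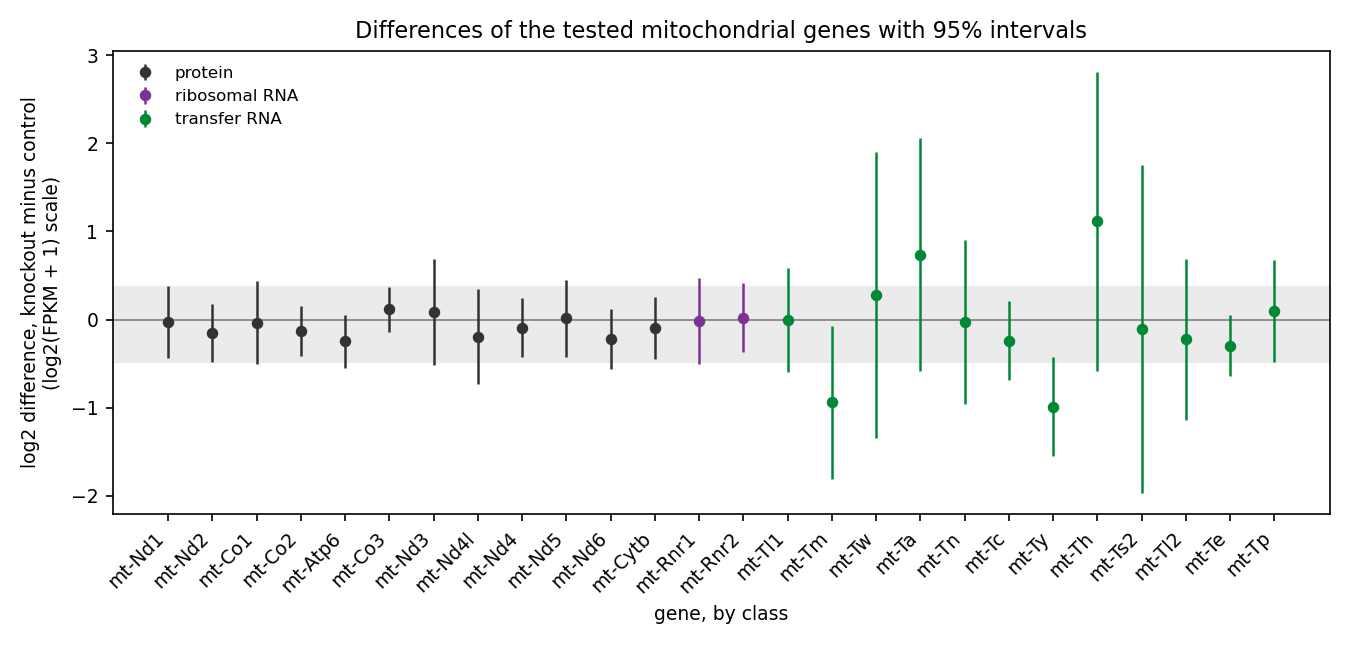
Log2 difference between knockout-labelled libraries and controls, on the log2(FPKM + 1) scale, with the 95% interval from limma for the 26 tested members; the grey band holds the middle 95% of the differences of all 19168 genes tested, -0.49 to 0.37. Protein and ribosomal RNA genes lie inside the band. mt-Ty lies below it, and mt-Th and mt-Ta lie above it with wide intervals. mt-Tm is drawn below the band, but it passed the filter only through its control values, which fixes its direction.

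All 37 genes together held 0.815%, 0.975% and 1.07% of the reads in controls and 0.876%, 1.04% and 0.885% in the knockout-labelled libraries. Reads shared with nuclear copies could be missing from these sums. The means were 0.953 ± 0.128% and 0.933 ± 0.0900% (SD, n = 3 each), a ratio of 0.979. Protein genes made up 97.1% of these reads, ribosomal RNA genes 2.74% and transfer RNA genes 0.182%. Ribosomal RNA held 0.0255 ± 0.00255% of all reads in controls and 0.0263 ± 0.00541% in the knockout-labelled libraries, and transfer RNA 0.00177 ± 0.000335% and 0.00167 ± 0.000244%. Each group mean lay within 1 SD of the other. Per 100 reads of protein genes there were 2.497 to 3.08 reads of ribosomal RNA in controls and 2.51 to 3.22 in the knockout-labelled libraries.

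The nuclear model Gm23935 was at 3089 to 4437 FPKM in controls, against 3674, 18296 and 12540 FPKM in the knockout-labelled libraries. Mitochondrial ribosomal RNA held 0.0323% in knockout-labelled library 2 and 0.0217% in knockout-labelled library 3, the highest and the lowest of the 6. A relation between the nuclear and the mitochondrial class was not tested.

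**Figure D5:**
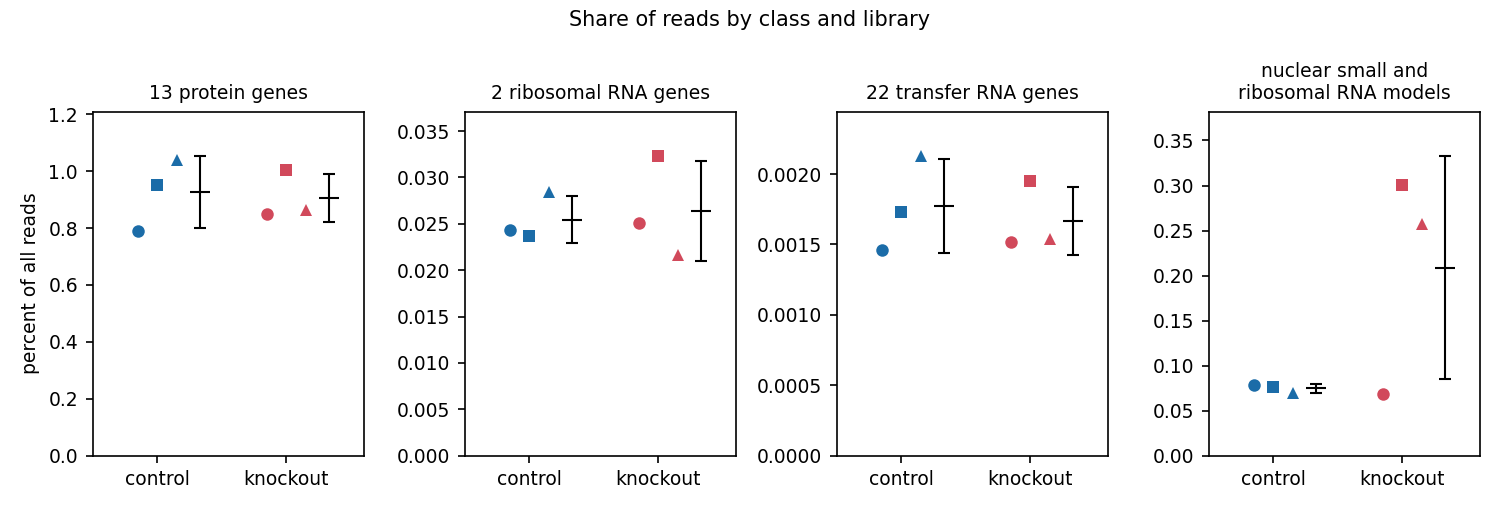
Percent of all reads on the 13 protein, 2 ribosomal RNA and 22 transfer RNA genes of the mitochondrial genome and on nuclear small and ribosomal RNA models, with 1 symbol per library by replicate number and a bar for the mean and SD of each group (n = 3). The groups overlap in the 3 mitochondrial classes, and knockout-labelled libraries 2 and 3 stand at 0.300% and 0.258% in the nuclear class.

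The nuclear genes that copy, transcribe, process, modify and use mitochondrial RNA were taken as 5 lists with 81 genes, of which 80 were tested. None passed (smallest limma adjusted p = 0.868, against 0% of all genes tested); 45 had a higher and 35 a lower mean, with a median log2 difference of 0.02. Those with an unadjusted p under 0.05 numbered 1 higher and 2 lower, where 1.48% and 2.38% of all genes tested fell under it. Tfam, which packs mitochondrial DNA and starts its transcription, was the most abundant of 9 transcription genes, at 33.2, 34.1 and 21.5 FPKM in controls, against 32.7, 18.5 and 14.9 FPKM in the knockout-labelled libraries. The log2 difference of Tfam was -0.46, SE 0.30 (limma adjusted p = 0.868). The 3 lowest values were those of control library 3 and knockout-labelled libraries 2 and 3, which also had the 3 lowest levels of the late spermatid markers.

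In each of the other 4 lists the most abundant gene overlapped between the groups. Polg, the catalytic subunit of the mitochondrial DNA polymerase, was at 12.9 ± 0.484 and 14.0 ± 0.925 FPKM. Grsf1, an RNA-binding protein of mitochondrial RNA granules, was at 32.3 ± 1.88 and 30.4 ± 1.196 FPKM. Nsun4, a methyltransferase of mitochondrial ribosomal RNA, was at 50.4 ± 9.65 and 48.1 ± 14.8 FPKM, and Kars, the lysyl-tRNA synthetase of cytosol and mitochondria, at 24.5 ± 1.70 and 26.3 ± 2.08 FPKM (SD, n = 3 each, controls first). None of the 4 passed the test.

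The smallest unadjusted p in these lists belonged to Mars2 and Lars2, the mitochondrial methionyl- and leucyl-tRNA synthetases. Mars2 read 14.4, 15.5 and 16.4 FPKM in the 3 controls, against 14.8, 8.67 and 9.20 FPKM in knockout-labelled libraries, for a log2 difference of -0.50 and a standard error of 0.19 (limma adjusted p = 0.868). Lars2 was at 7.31, 4.99 and 5.58 FPKM and at 6.27, 23.2 and 14.9 FPKM, for a log2 difference of 1.03 and a standard error of 0.40 (limma adjusted p = 0.868). Knockout-labelled library 1 lay among the controls in both genes. The 2 libraries with high Lars2 were those with high Gm23935, and the part of that signal in the Lars2 value was not tested. Rexo2, a mitochondrial oligoribonuclease, had a control mean of 12.5 ± 0.485 FPKM against 10.6 ± 0.836 FPKM (SD, n = 3 each), with no overlap. Tbrg4, of the FASTK family of RNA-binding proteins, was at 16.3 ± 0.678 and 19.2 ± 2.205 FPKM, and its groups overlapped.

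The nuclear subunits of complexes I, III, IV and V, 75 genes in 4 lists, had a median level of 25.9 FPKM. All 75 were tested and none passed, with 41 higher and 34 lower means and a median log2 difference of 0.01; 3 higher and 1 lower had an unadjusted p under 0.05, where 1.48% of all genes tested were higher and 2.38% lower. The most abundant were Ndufa2, Uqcrq, Cox8c and Atp5b, at means of 94.4, 91.9, 519 and 136 FPKM. Their library levels moved in a different order from those of the mitochondrial genes. Complex I subunits stood at 0.14, -0.13 and -0.0048 in controls and at 0.04, -0.14 and 0.10 in the knockout-labelled libraries, on the log2(FPKM + 1) scale centred on the 6 libraries. Knockout-labelled library 3, the lowest in median FPKM level for the mitochondrial protein genes, was above 0 for each of the 4 nuclear lists.

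Markers of the cells a testis holds were measured in the same libraries. The 12 late spermatid markers stood at 0.49, 0.29 and -0.14 in controls and at 0.35, -0.35 and -0.64 in the knockout-labelled libraries, centred as above, and all 12 had a lower mean. Their summed level ran from 12398 to 21195 FPKM in controls and from 9355 to 18074 FPKM in the knockout-labelled libraries. The 10 Sertoli markers, all with a higher mean, stood at -0.15, -0.18 and -0.03 and at -0.09, 0.23 and 0.22, with summed levels of 520 to 554 FPKM and of 527 to 676 FPKM. The 8 Leydig markers were lowest in knockout-labelled library 3, at -0.64. Of the tested markers, 5 of 8 for spermatogonia, 3 of 10 for spermatocytes, 1 of 10 for round spermatids, 5 of 5 for myoid cells and 7 of 7 for macrophages had a higher mean. Summed markers of blood ran from 7.03 to 45.98 FPKM and from 7.26 to 55.5 FPKM, those of epididymis from 111 to 160 FPKM and from 95.7 to 163 FPKM, and those of fat and muscle from 5.82 to 6.11 FPKM and from 3.61 to 5.91 FPKM. The epididymis sums were almost wholly Defb19, and the median of the 5 epididymal markers was 0.0283 FPKM. These sums are therefore not read as a measure of epididymal tissue. The most abundant marker of each list was Uchl1 for spermatogonia, Hspa2 for spermatocytes, Tssk2 for round spermatids, Tnp2 for late spermatids, Clu for Sertoli cells and Cyp17a1 for Leydig cells, with means of 23.7, 661, 272, 3844, 244 and 119.8 FPKM. For myoid cells, macrophages, blood, epididymis, and fat and muscle it was Acta2, C1qb, Hba-a1, Defb19 and Adipoq, with means of 35.4, 10.3, 10.6, 130 and 4.21 FPKM. None of these markers passed the test and none had an unadjusted p under 0.05. Their part in the mitochondrial values was not tested.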

How the data were processed

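The deposited values were FPKM, given by the authors in 1 table for 6 testis libraries; Trizol RNA and a SMARTER mRNA-Seq kit were used, per the labels' protocols. GRCm38 and mm10 are named in the submitters' processing notes. No source used here gives the aligner, the counter, the strand or the handling of reads with several matches. Groups came from the sample titles. All 37 MT entries had the position of GENCODE M21. FPKM multiplied by length fell on whole reads for 100% of values (tolerance 0.001 reads), giving 17059486 to 19343479 reads per library. The test was limma (version 3.58.1, R version 4.3.3) on log2(FPKM + 1), with the trend option, no covariate besides group, and Benjamini-Hochberg adjustment over the 19168 genes whose mean reached 0.5 FPKM. This scale understates changes of low genes. In data simulated for this comparison with 19168 genes, the test called 77.6% of 2-fold and 99.8% of 4-fold changes, with 7.38% false calls. These rates describe the simulated data only, and the power for the mitochondrial genes was not measured. The median standard error was 0.14 over all genes tested, 0.15 for protein genes and 0.38 for transfer RNA genes. mt-Ty, with a log2 difference of -0.99, had a limma adjusted p of 0.868. Alternatives were pseudocounts of 0.1 and 0.01, other filters, normalizations and models, the replicate number as a block, and each library left out; adding the reads of the chromosome 1 copies was chosen after the data were seen. Members, lists and the naming rule were chosen with earlier results of these data known. The rule named all MT genes (transfer RNA genes in detail at a mean of 0.5 FPKM or more), the 5 nuclear copies highest in FPKM, the most abundant gene of each list and the 2 genes of smallest p per direction in the mitochondrial RNA lists. Gm10222, Gm28439, Gm13339, Gm13340, Gm13341, Gm20594, Cep295, Gm23935, Lcn5 and Srp54b were named after their values were seen. The lists covered nuclear genes for mitochondrial DNA and RNA, respiratory chain subunits and markers of testis and other cell types.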

Additional observations from a re-analysis of the deposited data

How the results depend on the processing

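No mitochondrial gene passed under any of 18 alternatives (adjusted p from 0.190 upward over 26 genes). Of all genes 0 passed, except 1 by limma-voom on recovered reads, the nuclear gene Srp54b. Deviations from the group mean correlated at 0.29, 0.04 and 0.20 between same-numbered libraries. Between differently numbered libraries the correlations ran from -0.32 to 0.17. These values do not settle whether the numbers pair the samples. The main test used no pairing, as the labels state none. The replicate block gave 0 genes and 0 members past the threshold, with 405 higher and 1006 lower at unadjusted p below 0.05, against 284 and 457 without it.

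Log2 differences changed sign as follows, and the cause was not tested. With quantile normalization mt-Rnr1 was at 0.037, mt-Tl1 at 0.0083, mt-Nd1 at 0.023, mt-Co1 at 0.19 and mt-Nd4 at 0.0081. With the total of nuclear reads mt-Rnr1 was at 0.0098, mt-Tl1 at 0.020 and mt-Nd1 at 0.00054. By limma-voom mt-Rnr1 was at 0.0075, mt-Tl1 at 0.015 and mt-Tn at 0.0063. With array weights mt-Rnr1 was at 0.014 and mt-Ts2 at 0.64. With reads of the chromosome 1 copies added, mt-Nd3 was at -0.30. Leaving out 1 library at a time, the differences ran from -0.14 to 0.031 for mt-Co1, -0.13 to 0.10 for mt-Nd1, -0.059 to 0.36 for mt-Nd3, -0.14 to 0.12 for mt-Nd5, -0.17 to 0.20 for mt-Rnr1, -0.15 to 0.18 for mt-Rnr2, -0.25 to 0.19 for mt-Tl1, -0.56 to 0.19 for mt-Tl2, -0.38 to 0.30 for mt-Tn, -0.13 to 0.29 for mt-Tp, -0.84 to 0.70 for mt-Ts2 and -0.56 to 0.80 for mt-Tw. The median of the 13 protein genes ran from -0.14 to -0.03 and the ratio of read shares from 0.913 to 1.04. Transfer RNA genes rest on at most 515 reads over the 6 libraries, which limits their precision.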
